A study of Mus musculus with 3 samples.

Results

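Single lung lymphocytes with 10 or more UMIs (unique molecular identifiers, counted transcripts) of the chemokine gene Ccl5, at least 1 UMI of the surface antigen gene Ly6c2, at least 1 UMI of Cd3e or Cd3d and fewer than 2 UMIs of the delta T cell receptor constant gene Trdc were singled out. They numbered 87 of 2892 cells with a Cd3e or Cd3d UMI (CD3+ cells) in 2 libraries, which is 3.01% with 95% exact binomial limits of 2.42% to 3.7%. Of these, 80 lay among 1658 CD3+ cells of the library with the label IL-18R- CD103- GFP- (4.83%, limits 3.84% to 5.97%) and 7 among 1234 CD3+ cells of the IL-18R+ pool (0.567%, limits 0.228% to 1.17%). The cells are called Ccl5-high Trdc-low cells below, and all limits cover counting error only. Because Ccl5, Ly6c2, Cd3e, Cd3d and Trdc chose them, the levels of those 5 genes are a description and carry no comparison.

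The study profiled lung lymphocytes of GFI1B-GFP reporter mice, in which GFP marks cells that use Gfi1b, a gene for a zinc finger repressor of blood cells. Cells from perfused, digested lungs were gated as live lineage-negative lymphocytes positive for CD45, CD90.2 and IL-7R and sorted into 3 groups, each made into 1 droplet library (10x Chromium 3'). The pool mixes IL-18R+ CD103+ GFP- with IL-18R+ CD103- GFP+ cells, whose barcodes are not assigned to either sort, and the remaining library was sorted as IL-18R- ST2+. All groups carry the reporter, no treatment is labelled, and the sources used here do not give the mice's age, sex and number or the lineage antibodies.

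T cells carry either an alpha beta or a gamma delta antigen receptor on a shared CD3 complex, and the Trdc gene lies inside the alpha chain locus, so that a completed alpha chain rearrangement removes it from that chromosome. Memory CD8 T cells are known for stored Ccl5 transcript, for Ly6C on their surface and, in the central memory form, for the lymph node homing receptor Ccr7. Some CD8 and gamma delta T cells also carry receptors of natural killer (NK) cells such as Klrd1, which pairs with Klrc1 or Klrc2.

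A pair of neighbouring paralogs encodes the Ly6C antigen, and the cells were chosen on Ly6c2. Ly6c2 (chromosome 15, 75108158 to 75111970, minus strand, GRCm38) had 639 UMIs in the 80 cells, while Ly6c1 (chromosome 15, 75044018 to 75048830, minus strand) had 1. Since a Ly6c2 UMI was required, these counts are a description only, and the promoters are printed to set the gene that chose the cells beside its neighbouring paralog. Both come from RefSeq on GRCm38.p6, from 250 bases before to 50 bases after the first listed start, for Ly6c2 at chr15:75111922-75112221 and for Ly6c1 at chr15:75048788-75049087, minus strand. Capitals mark matches to AGGAAGT (an ETS motif) or to TGTGGTT (a RUNX motif) on either strand.
Ly6c2: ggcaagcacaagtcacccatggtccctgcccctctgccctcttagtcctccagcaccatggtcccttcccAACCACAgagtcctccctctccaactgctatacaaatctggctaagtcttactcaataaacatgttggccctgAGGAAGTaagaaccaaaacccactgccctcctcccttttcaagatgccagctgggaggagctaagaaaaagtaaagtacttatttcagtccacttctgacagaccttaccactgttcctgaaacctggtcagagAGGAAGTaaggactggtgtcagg
Ly6c1: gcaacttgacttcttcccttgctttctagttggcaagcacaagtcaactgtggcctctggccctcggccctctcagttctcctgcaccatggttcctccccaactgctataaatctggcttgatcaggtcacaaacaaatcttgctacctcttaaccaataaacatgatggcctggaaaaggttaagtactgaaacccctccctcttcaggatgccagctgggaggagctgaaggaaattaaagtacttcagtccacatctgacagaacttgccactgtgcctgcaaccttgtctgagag
Both windows aligned over 286 columns with 214 identical (74.8%). The Ly6c2 window held 2 ETS matches, at -107 and 27 from the start, and 1 RUNX match, at -180. None of these matches, and none to the T-box motif GGTGTGA or the TCF and LEF motif CTTTGAT, was in the printed Ly6c1 window, although the window of the other listed Ly6c1 start held 1 ETS and 1 T-box match. Of 32851 mouse promoter windows of 300 bases, 9.35% held the ETS letters, 5.27% the RUNX letters, 3.98% the T-box letters and 3.73% the TCF and LEF letters. These are matches of letters only, and reads shared between the paralogs could have been dropped in counting, so the level of each is uncertain.

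Ccl5 encodes a chemokine that draws T cells and lies on chromosome 11 at 83525778 to 83530518 on the minus strand. Its transcript left a gap below the chosen cells among the few CD3+ Trdc-low cells with Ly6c2. The 80 cells of the library with the label IL-18R- CD103- GFP- had 15 Ccl5 UMIs at the lowest, 55 at the median and 133 at the highest, and the 7 pool cells had 18, 49 and 124. No CD3+ Trdc-low cell with Ly6c2 in either library had between 1 and 14 Ccl5 UMIs: the 3 cells just outside in the first library and the 5 in the pool had 0. Over all CD3+ cells the gap was not empty. In the first library 42 had 1 to 9 Ccl5 UMIs, 7 of them with Ly6c2, and in the pool 14 did, 2 of them with Ly6c2. In the 80 cells Ly6c2 itself ran from 1 through a median of 7 to 28 UMIs per cell, with 5 cells at 1 UMI. Just outside that condition were 2 cells without Ly6c2, with 35 and 99 Ccl5 UMIs.

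The Trdc condition, in contrast, fell where no such gap was seen. Of the 80 cells, 59 had 0 and 21 had 1 Trdc UMI, and 31 further cells met the rest of the rule with exactly 2. In all, 268 cells met the Ccl5, Ly6c2 and CD3 conditions with 2 or more Trdc UMIs (median 6, highest 26). They are called Trdc-high counterparts here and made up 77% of the 348 Ccl5-high Ly6c2+ CD3+ cells in that library (limits 72.2% to 81.3%). The pool held 10 of them. The plot of Ccl5 against Trdc per cell shows both boundaries.

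**Figure D1:**
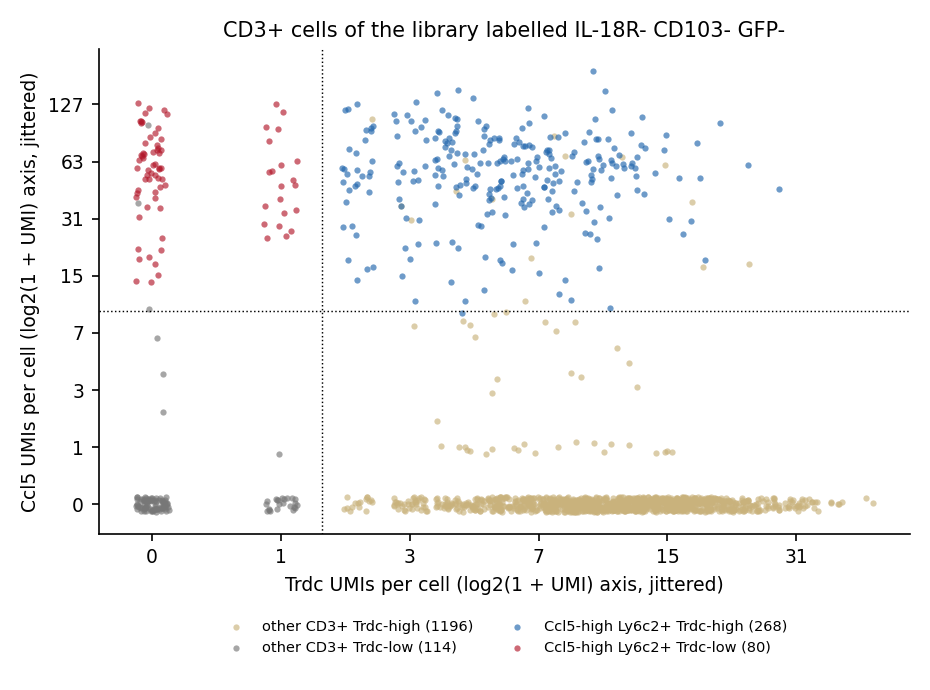
Ccl5 UMIs (vertical) against Trdc UMIs (horizontal) in each CD3+ cell of the library with the label IL-18R- CD103- GFP-, on log2(1 + UMI) axes with random jitter, with dotted lines at the conditions. The 80 Ccl5-high Trdc-low cells (red) lie above a band of 1 to 9 Ccl5 UMIs that holds 42 CD3+ cells. They run into the 268 Trdc-high counterparts (blue) across the Trdc line. The 114 other CD3+ Trdc-low cells (grey) and 1196 other Trdc-high cells (tan) lie mostly at 0 Ccl5.

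Depth and composition of the cells were as follows. The libraries kept 1659 (pool), 1883 and 1622 (IL-18R- ST2+) cells with 7966923 to 9705864 UMIs. The 80 cells had a median of 6980 UMIs and 2016 genes, against 4732 UMIs in the other CD3+ cells and 6824 UMIs in the Trdc-high counterparts. Ribosomal protein genes took 39.2% of their UMIs, 37.1% in the counterparts, 24.5% in the other CD3+ Trdc-low cells and 22.3% in the other Trdc-high cells. The immediate early and heat shock list, genes that rise during tissue digestion, summed to 4543 UPM (UMIs per 1000000 UMIs of the summed set) in the 80 cells, 4814 in the counterparts and 11165 in the other CD3+ cells. The part of these differences in the results below was not tested. A doublet caller marked 26 of 5164 cells in the 3 libraries (0.503%), among them none of the 80 and 7 of the counterparts. Pool and IL-18R- CD103- GFP- libraries shared 1 barcode, which was not among the chosen cells.

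Marker lists of other cell types were summed over the 80 cells. Of 15 myeloid genes 1 had a UMI in the 80 cells, with 2 UMIs in all and Lyz2, Cd14 and Csf1r at 0. The B cell list had 56 UMIs in 35 of the 80 cells and summed to 97.3 UPM from 3 of 9 genes against 88.1 UPM in the other CD3+ cells, and Cd79a and Ms4a1 were at 0. The ILC2 list had 8 UMIs over 3 of 10 genes, with Il1rl1, Il5 and Il13 at 0. The ILC1 and NK list had 114 UMIs in 50 of the 80 cells and summed to 198 UPM over 9 of 11 genes against 125 UPM in the other CD3+ cells, and its defining receptor Ncr1 was at 0. Cycling genes summed to 1041 UPM against 1112 UPM. Trbc1 or Trbc2, the beta chain constant genes, were detected in 80 of 80 cells and in 258 of 268 counterparts.

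The transcripts of 5 marker genes, of which Ccl5 and Ly6c2 belong to the rule, gave the cells the working name of memory T-like cells. Klrd1, the CD94 chain of inhibitory NK receptors (chromosome 6, 129591782 to 129598775, plus strand), ran from 0 through a median of 3 to 9 UMIs per cell and was detected in 93.8% of the 80 cells. Ms4a4b, a membrane protein of T cells, ran from 2 through 9 to 26 UMIs and was detected in 100%. Ccr7 ran from 0 through 1 to 10 UMIs and was detected in 51.2%. As a reference, in Trdc-high cells with an Il17a UMI (median 4574 UMIs) Klrd1 was detected in 1.39%, Ms4a4b in 5.98% and Ccr7 in 0.797%. In the 225 cells of that library without CD3 UMIs the shares were higher, at 14.2%, 35.6% and 12%. All 3 detection shares of the 80 cells lay above both references. How much of either reference is free RNA was not tested. Thinned to 2000 UMIs per cell, the shares in the 80 cells were 63.8% for Klrd1, 87.5% for Ms4a4b and 22.5% for Ccr7. Cd44, a textbook memory marker, went the other way, with 90.4 UPM (limits 67.5 to 118) against 370 UPM in the other CD3+ cells. The same markers stood at like levels in the Trdc-high counterparts (values below).

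Against all other CD3+ cells of the library with the label IL-18R- CD103- GFP- (1578 cells), 105 of 3008 measured genes were higher in the 80 cells by 2-fold or more (percent called 3.49) and 490 were lower (percent called 16.3), with a median log2 ratio of -0.31 over all. With TMM factors, which rescale sets to a common bulk of genes, 150 were higher and 355 lower, and with median of ratios factors 136 and 370. A gene counted as measured at 50 UPM or more in either set. These cells include the 268 counterparts: without them, an alternative chosen after seeing the data, 165 genes were higher. With 1 library there is no replicate check and no test. The 114 other CD3+ cells that also had fewer than 2 Trdc UMIs are used first for the account of gene groups, and the counterparts after them. Against them 119 of 3083 genes were higher by 2-fold or more (percent called 3.86) and 635 lower (percent called 20.6), with a median log2 ratio of -0.37. That split depends on the scaling: with TMM, which moved the median over all genes to 0.02, it was 226 higher and 312 lower, and with median of ratios 211 and 350. Of the list medians named below in this comparison, the alpha beta list changed sign under both scalings and the others kept theirs.

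NK receptors were the group with the highest median. Of 8 measured genes of the NK receptor list 5 were higher (Klrd1, Klrc1, Klrc2, Klre1 and Klra7), 1 was lower (Cd226, an activating adhesion receptor), and the list's median log2 ratio was 3.87. The 5 genes lie within the NK gene complex of chromosome 6, between 129577905 and 130233322. Klrd1 had 481 UPM in the 80 cells (limits 426 to 542) against 43.6 UPM in the other CD3+ Trdc-low cells, 11-fold (limits 7.26 to 17.5). Klrc1, the NKG2A partner of Klrd1, had 167 against 5.45 UPM, and Klrc2, the activating NKG2C partner, 120 against 5.45 UPM. In the 114 comparison cells 5.45 UPM amounts to 3 UMIs, and Klrc1 was detected in 2 of those cells. Klra7, an Ly49 receptor, and Klre1 were not detected in the 114 cells. Against the floor of 3 UMIs in that set, a setting and not a counting limit, Klra7 was 23.9-fold and Klre1 19.4-fold higher. Klrk1, the activating receptor NKG2D, had 134 against 173 UPM. Members of the Klra and Klrc families are close paralogs, so their levels are uncertain where reads were shared.

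Receptors and regulators of circulation were higher as well. Of 15 measured genes of the lymphoid homing and quiescence list 9 were higher (among them Ccr7, S1pr1, Klf2, Klf3, Lef1, Foxp1, Cd27 and Bcl2) and 1 was lower (Ccr2), with a median log2 ratio of 1.16. Ccr7, which guides cells into lymph nodes, had 231 against 54.5 UPM, 4.24-fold (limits 2.83 to 6.53). S1pr1, the exit receptor, had 417 against 149 UPM and its regulator Klf2 758 against 266 UPM. Lef1, a Wnt pathway factor of early memory cells, had 276 against 94.5 UPM, while its partner Tcf7 stood at 323 against 187 UPM, short of 2-fold. Ccr2, an inflammatory chemokine receptor, had 22.6 against 531 UPM, 23.5-fold lower (limits 13.5 to 44.7).

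Of 17 measured genes of the memory CD8 T cell list 10 were higher, 3 were lower (Cd44, Ly6a and Itgal) and 4 were neither, with a median log2 ratio of 1.07. Eomes, the T-box factor of memory and NK cells, had 66 UPM (limits 46.7 to 90.6) against 3.64 UPM from 2 UMIs, 18.2-fold on the UMIs as counted (limits 4.69 to 155). Gramd3 had 565 against 140 UPM and Ms4a4b 1345 against 315 UPM. Il2rb, the shared receptor chain for IL-2 and IL-15, had 535 against 255 UPM, and Cd7 had 122 against 23.6 UPM. Tbx21, the T-bet gene, did not separate the sets, at 20.9 (limits 10.8 to 36.4) against 23.6 UPM.

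Cytotoxic genes were divided. Of 9 measured genes 3 were higher (Gzmm, Nkg7 and Cst7) and none was lower, with a median log2 ratio of 0.93. Nkg7, a granule membrane protein, had 565 against 273 UPM, 2.07-fold (limits 1.7 to 2.53). Gzmm, a granzyme, had 88.6 UPM against 1.82 UPM from 1 UMI. The main killing granzymes were scarce, with 12.2 UPM of Gzma and 12.2 UPM of Gzmb, each from 7 UMIs in 3 cells. Prf1, the pore protein perforin, had 38.2 against 12.7 UPM and was below the level for measured genes in both sets. Ifng, the main type 1 cytokine, had 24.3 UPM (limits 13.3 to 40.8) against 20 UPM.

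Chemokines besides Ccl5 were carried by few cells, and the effector cytokine and chemokine list had a median log2 ratio of -1.12. Of its 6 measured genes 2 were higher (Xcl1 and Ccl4), 3 were lower (Tnf, Tgfb1 and Cd40lg) and 1 was neither. Xcl1, which attracts cross-presenting dendritic cells, had 73 against 20 UPM and was detected in 26.2% of the 80 cells. Ccl4 had 130 against 3.64 UPM from 2 UMIs, but 89.3% of its UMIs came from 3 of the 80 cells, so its level rests on those cells.

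The type 17 program was the group with the lowest median. All 12 measured genes of that list were lower, with a median log2 ratio of -4.28. Il17a, the lead cytokine, had no UMI in the 80 cells and 127 UPM in the other CD3+ Trdc-low cells, 24.4-fold lower against the floor. Maf, a transcription factor of the program, had 10.4 against 658 UPM, 63.1-fold lower (limits 28.7 to 173). Ramp1, a neuropeptide receptor chain, had 2 UMIs against 629 UPM, and the ion channel gene Tmem176b had 2 UMIs against 705 UPM.

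Residency, checkpoint and early response genes were lower too. Of 8 measured tissue residency genes 5 were lower (Rgs1, Rgs2, Ahr, Cxcr6 and Itgb7). Cxcr6, a receptor of lung resident T cells, had 41.7 against 642 UPM, 15.4-fold lower (limits 10.2 to 24.3). Of 9 costimulation and checkpoint genes 5 were lower (Pdcd1, Ctla4, Icos, Tnfrsf4 and Tnfrsf25), with Icos at 129 against 1167 UPM. S100a4, a calcium-binding protein of motile cells, had 97.3 against 3451 UPM, 35.5-fold lower (limits 27.2 to 47.1). Of 16 immediate early and heat shock genes 10 were lower, including Fos at 181 against 865 UPM. Interferon response genes were mostly level, with 1 of 9 lower (Ly6e), 8 neither and a median of 0.49.

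Of 14 measured genes of the effector state factor list 2 were higher (Eomes and Hopx), 5 were lower (Id2, Bhlhe40, Gata3, Zbtb16 and Ikzf3) and 7 were neither, with a median log2 ratio of -0.71. Hopx, a homeodomain protein of effector and memory cells, had 130 UPM (limits 102 to 163) against 52.7 UPM. Gata3, the type 2 factor, had 43.5 UPM (limits 28.1 to 64.1) against 165 UPM and Bhlhe40, a factor of cytokine production, 36.5 against 294 UPM. Of 15 cytokine receptor genes 1 was higher, Il21r at 136 against 38.2 UPM, and 3 were lower, with a median log2 ratio of -0.52. That share of lower genes is close to the 20.6% lower among all measured genes, so the count says nothing particular about the list. Among the lower ones, Il2ra, the high affinity IL-2 receptor chain, had 13.9 against 202 UPM and Ifngr2, a chain of the interferon gamma receptor, 6.95 against 126 UPM. Both were near their levels in the Trdc-high counterparts, at 10.6 and 7.95 UPM.

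Receptor chains were compared with the same cells. Of 16 measured genes of the alpha beta receptor and CD3 list 2 were higher (Cd8a and Cd8b1) and 14 neither, and its median log2 ratio of -0.12 was 0.21 with TMM and 0.15 with median of ratios. Cd8b1 had 264 against 32.7 UPM, 8.07-fold (limits 4.94 to 14). Trac, in contrast, had 295 UPM (limits 253 to 343) against 456 UPM. Of 7 gamma delta genes 5 were lower and 2 neither, with a median of -2.26, among them Cd163l1, a scavenger receptor of IL-17 producing gamma delta T cells, at 17.4 against 347 UPM.

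Transcripts of the proteins used for sorting differed in level. Il18r1 had 191 UPM (limits 157 to 230) and was detected in 68.8% of the cells, against 704 UPM in the other CD3+ Trdc-low cells, 3.68-fold lower (limits 2.97 to 4.59). The level in the comparison cells goes against the IL-18R- label of the library at the transcript level. Thy1, the CD90 gene, had 250 against 569 UPM and Il7r 996 against 1665 UPM, under 2-fold and detected in 97.5% of the 80 cells. Itgae, the CD103 gene, had 4 UMIs, and Il1rl1, the ST2 gene, had none.

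**Figure D2:**
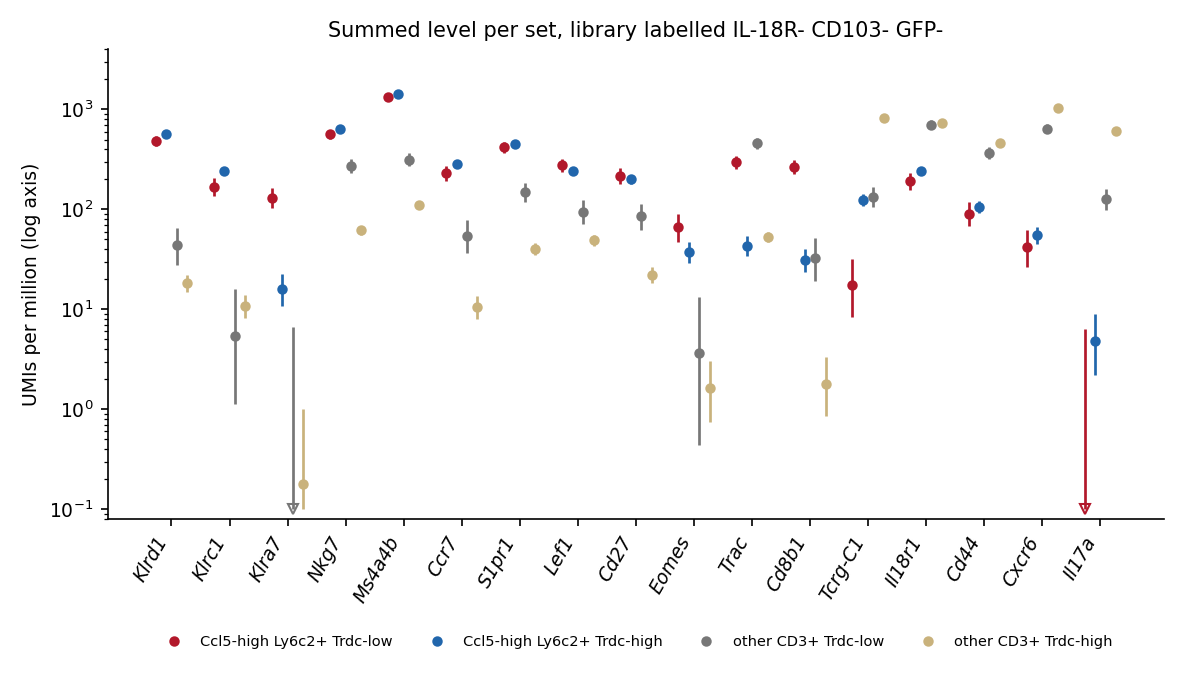
Summed levels of 17 genes in UPM (log axis) in 4 sets of CD3+ cells of the library with the label IL-18R- CD103- GFP-, with 95% Poisson limits as bars and triangles for 0 UMIs. Red and blue points (80 Ccl5-high Trdc-low cells and 268 Trdc-high counterparts) lie close together for NK receptor and homing genes other than Klra7, and apart for Trac, Cd8b1 and Tcrg-C1.

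The counterparts with 2 or more Trdc UMIs had nearly the same transcripts. Of 2545 genes measured in the pair of sets, 11 were higher in the 80 cells by 2-fold or more (percent called 0.432) and 25 lower (percent called 0.982), with a median log2 ratio of -0.04. All measured genes of the homing (14), memory CD8 (17), tissue residency (7), cytokine receptor (13), interferon (10) and immediate early (14) lists were neither higher nor lower by 2-fold. Ccl5 and Ly6c2, which chose both sets, stood at 8325 against 8538 UPM and 1111 against 1135 UPM. Klrd1 had 481 against 567 UPM, Ccr7 231 against 281 UPM, S1pr1 417 against 446 UPM and Ms4a4b 1345 against 1435 UPM. Their ratios lay between 0.82 for Ccr7 (limits 0.674 to 0.996) and 0.94 for Ms4a4b (limits 0.864 to 1.02).

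Receptor and coreceptor genes made up 8 of the 36 genes that differed from the counterparts by 2-fold or more. Cd8b1, the CD8 beta chain (chromosome 6, 71322788 to 71337494, plus strand), had 264 UPM (limits 224 to 310) against 31.2 UPM, 8.45-fold (limits 6.22 to 11.6). Cd8a, the alpha chain beside it (71373427 to 71379173), had 90.4 against 27 UPM, 3.35-fold (limits 2.23 to 5.02). Trac, the alpha chain constant gene (chromosome 14, 54220521 to 54224206, plus strand), had 295 against 43.4 UPM, 6.8-fold (limits 5.2 to 8.96). The gamma chain constant genes were lower, Tcrg-C1 at 17.4 against 124 UPM (7.16-fold, limits 3.83 to 15.1), Tcrg-C4 at 33 against 109 UPM and Tcrg-C2 at 34.8 against 101 UPM. Trdc (chromosome 14, 54142851 to 54148868, plus strand) was lower by the rule itself. The gamma constant genes are near-identical copies, so their division is uncertain.

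The other 28 genes lay outside the receptor and coreceptor loci, 8 of them higher and 20 lower. Klra7 (chromosome 6, 130218605 to 130233322, minus strand) had 130 UPM against 15.9 UPM in the counterparts, 8.2-fold (limits 5.3 to 13), and its UMIs came from 30% of the 80 cells, with 0 at the median and 13 at the highest. Klre1 had 106 against 41.3 UPM and Gzmm 88.6 against 29.7 UPM. S100a4 had 97.3 against 211 UPM, 2.17-fold lower (limits 1.64 to 2.93), with 51.8% of its UMIs in 3 of the 80 cells, and Ppp1r16b, a phosphatase subunit, 62.6 against 129 UPM. Eomes, at 66 against 37.1 UPM, stayed under 2-fold.

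**Figure D3:**
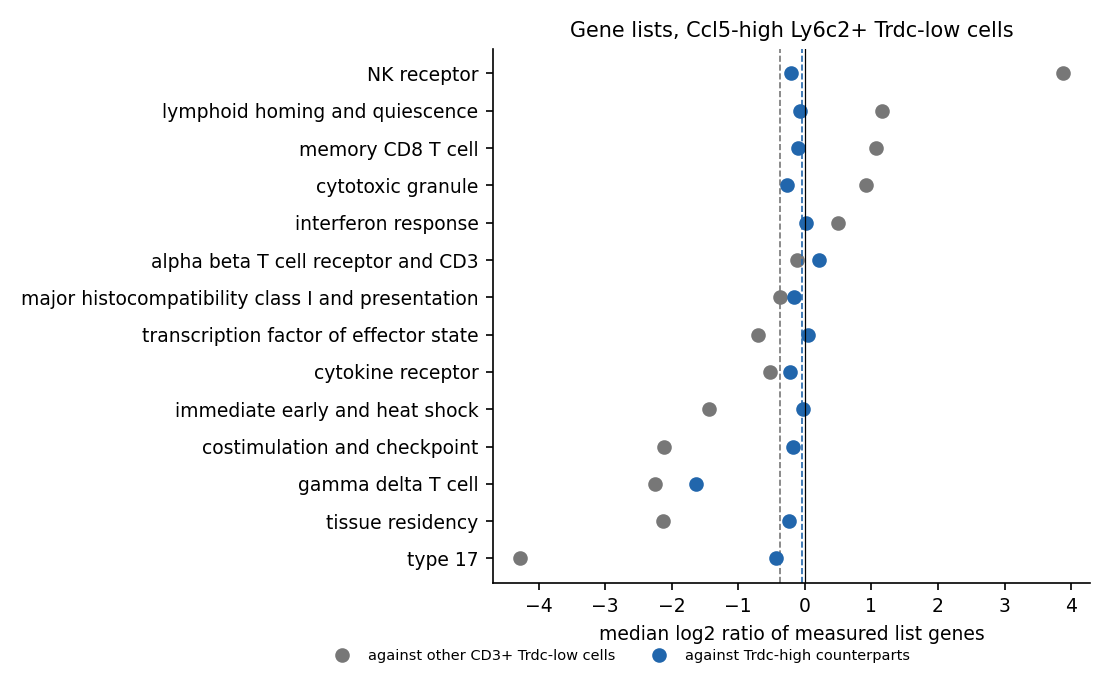
Median log2 ratio over the measured genes of 14 gene lists (horizontal axis), for the 80 Ccl5-high Trdc-low cells over the 114 other CD3+ Trdc-low cells (grey) and over the 268 Trdc-high counterparts (blue), dashed lines marking the median over all measured genes. Grey points run from -4.28 for the type 17 list to 3.87 for the NK receptor list, while blue points lie near 0 other than the gamma delta list at -1.63.

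Receptor transcripts divided the 80 cells among themselves. Cd4 had no UMI in any of them, which allows a share of cells with a UMI of up to 4.51%. This does not limit the share that expressed the gene, since how often a cell with Cd4 expression yields a Cd4 UMI was not measured. In the other CD3+ Trdc-low cells Cd4 was detected in 7.89% and Trac in 56.1%. How many of those were CD4 T cells is not known, so they give no detection rate for Cd4. Cd8a or Cd8b1 was detected in 42 cells (52.5%, limits 41% to 63.8%) and, thinned to 2000 UMIs, in 36.2%. Trac was detected in 51 cells (63.7%, limits 52.2% to 74.2%). Both together marked 35 cells, 34 of which had 0 Trdc UMIs. Neither was found in 22 cells, of which 15 had 1 Trdc UMI. Cells with Trac and no Cd8 UMI numbered 16, and cells with Cd8 and no Trac UMI numbered 7.

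Divided by Trdc, a gene of the rule, the classes are given as a description. Among the 21 cells with 1 Trdc UMI, 71.4% had neither Cd8 nor Trac and 4.76% had both. In the 268 counterparts these shares were 69% and 2.61%, and in the 59 cells with 0 Trdc UMIs they were 11.9% and 57.6%. A Trdc UMI was found in 6.22% of the 225 cells without CD3 UMIs in that library (limits 3.44% to 10.2%, median depth 4813 UMIs). Trac was detected in 7.11% of them, and in 17.5% of Trdc-high cells with an Il17a UMI (limits 14.3% to 21.1%). Whether these UMIs came from free RNA was not tested. The share of cells with a Trdc UMI was 7.84% among cells with Trac (limits 2.18% to 18.9%) and 58.6% among cells without (limits 38.9% to 76.5%). A Tcrg constant gene was detected in 27 of the 80 cells (33.8%) and in 230 of the 268 counterparts (85.8%). With Trdc held at 0, 3.56% of the CD3+ cells remained, with Cd8 in 66.1% and Trac in 79.7% of them.

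**Figure D4:**
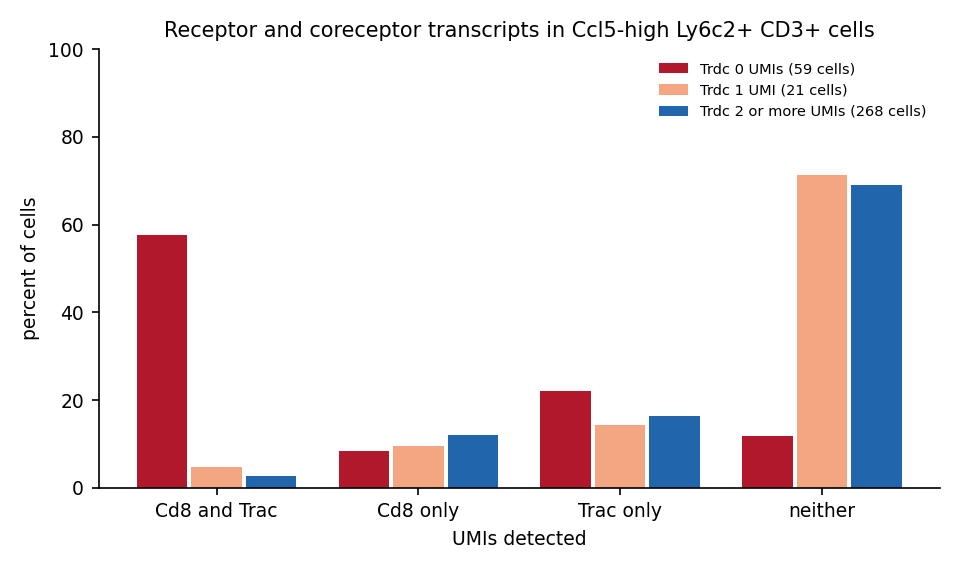
Percent of Ccl5-high Ly6c2+ CD3+ cells (vertical axis) with UMIs of Cd8a or Cd8b1 and Trac, by Trdc UMIs, in the library with the label IL-18R- CD103- GFP-. Cells with 1 Trdc UMI (21 cells) lie close to the 268 cells with 2 or more, at 71.4% and 69% with neither transcript, while 57.6% of the 59 cells with 0 Trdc UMIs have both.

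Variable gene segments were read too thinly for clonal statements, since 3' libraries rarely cover them. Alpha variable (Trav) genes had 15 UMIs over 8 genes in 12 of the 80 cells, and the leading gene, Trav16n, had 4. Beta variable (Trbv) genes had 10 UMIs over 6 genes in 9 cells. Gamma variable genes had 26 UMIs in 18 cells, 21 of them from Trgv2, and 20 of the 26 were in the 38 cells without a Cd8 UMI.

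The 42 cells with a Cd8 UMI (median 8145 UMIs) were set against the 38 without (median 6654 UMIs), a comparison chosen after seeing the data. Of 2774 measured genes 73 were higher by 2-fold or more (percent called 2.63) and 207 lower (percent called 7.46), and for 160 of them the counting limits of the ratio excluded 1. Trac had 353 UPM with Cd8 and 214 UPM without, and Tcrg-C4 8.91 and 67.1 UPM. Ccr7 had 288 UPM (limits 234 to 351) and 151 UPM (limits 106 to 209), detected in 66.7% and 34.2% of the cells. Klrc1 ran the other way, with 119 UPM (limits 84.8 to 162) and 235 UPM (limits 177 to 305), as did Cd160, a receptor for HVEM, with 11.9 and 58.7 UPM. Klrd1 hardly differed, at 448 UPM (limits 380 to 526) and 528 UPM (limits 440 to 629). The other receptor genes did not divide Ccr7 as Cd8 did. Ccr7 had 218 UPM in cells with Trac and 263 UPM in cells without, with overlapping limits. By Trdc, Ccr7 had 201 UPM with 0 UMIs (limits 161.5 to 246.8) and 338 UPM with 1 (limits 244.8 to 455.6). It was detected in 52.5% and 47.6% of those cells, and had 281 UPM in the counterparts. Klra7 had 165 UPM in the 59 cells with 0 Trdc UMIs (limits 129.6 to 207.3), where 23 cells had a UMI of it. In the 21 cells with 1 Trdc UMI it had 7.87 UPM from 1 UMI (limits 0.199 to 43.8), and in the counterparts 15.9 UPM. Trdc belongs to the rule, so this is a description, and the 7 pool cells had no UMI of either gene.

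The 7 cells of the IL-18R+ pool offered the only repeat of the comparison, with 51533 UMIs in all, so that 3 UMIs amount to 58.2 UPM. Against the other 1227 CD3+ cells of the pool 516 of 3561 measured genes were higher (percent called 14.5) and 373 lower (percent called 10.5), and for 528 of them the counting limits excluded 1. With TMM factors the split was 422 higher and 514 lower, and with median of ratios 413 and 528. Of the 105 genes higher in the larger set, from the library with the label IL-18R- CD103- GFP-, 72 were called higher in the pool too, and of the 490 lower genes 203 were called lower there. Another 2 genes were called in opposite directions. A gene that is low in the other pool cells was measured only where the 7 cells held 3 or more UMIs of it, so the count of higher genes is no sign of stability.

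Klra7 and Ccl4, at 130 UPM each in the 80 cells, had no UMI in the 7 pool cells (upper limit 71.6 UPM each). Klrd1 had 621 UPM in the pool cells (limits 425 to 877) against 16.4 UPM in the other CD3+ cells, Ms4a4b 1242 against 77.5 UPM and Ccr7 252 against 16.4 UPM. Cd8b1 had 311 UPM (limits 178 to 504) and Trac 466 UPM (limits 298 to 693). Cd8a or Cd8b1 was detected in 2 of the 7 cells, Trac in 4 and Trdc in none. Il17a had no UMI, and Il18r1 had 194 UPM (limits 93 to 357) against 723 UPM in the other CD3+ cells of a library sorted as IL-18R+. Against the 363 other CD3+ Trdc-low cells of the pool 511 genes were higher (percent called 14.6) and 349 lower (percent called 9.96).

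Set directly against each other, the 80 cells had 68 of 3094 genes higher than the 7 pool cells by 2-fold or more (percent called 2.2) and 625 lower (percent called 20.2), but the limits excluded 1 for only 214 of these. With TMM factors the split was 219 higher and 205 lower. Fcer1g, a signalling chain of NK and Fc receptors, had 24.3 UPM (limits 13.3 to 40.8) against 291 UPM (limits 163 to 480) in the pool cells, 12-fold lower (limits 5.38 to 26.8). Its UMIs were uneven over the 7 pool cells, with 1 at the median and 7 in the highest cell, which the limits do not cover. S100a4 had 97.3 against 504 UPM and Cd7 122 against 446 UPM. Btg2, an antiproliferative early gene, was higher in the 80 cells at 414 against 136 UPM, 3.04-fold (limits 1.46 to 7.66), and Cd69, an activation and retention marker, at 226 against 77.6 UPM. Sort and library cannot be told apart in these differences. The third library, sorted as IL-18R- ST2+, held 1 cell that met the rule among 64 CD3+ cells.

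**Figure D5:**
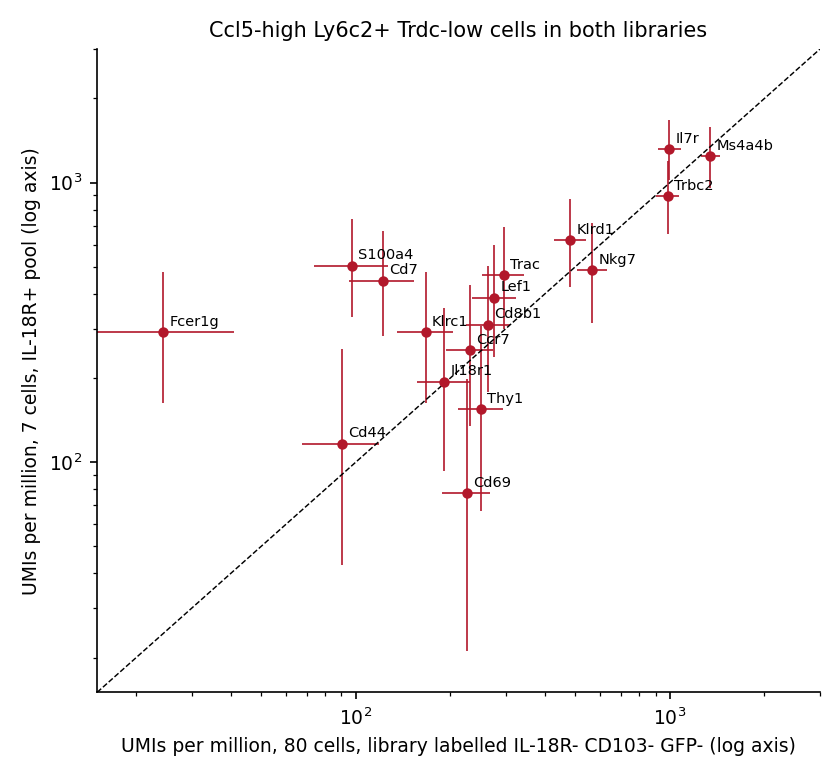
Levels in UPM (log axes) of 17 genes in the 7 Ccl5-high Trdc-low cells of the IL-18R+ pool (vertical) against the 80 of the library with the label IL-18R- CD103- GFP- (horizontal), with 95% Poisson limits and a dashed line of equal levels. Most points lie on the line within their limits. Among those off it, Fcer1g, S100a4 and Cd7 lie above and Cd69 lies below.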

How the data were processed

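Each library is droplet 3' RNA-seq (10x v3.1 dual index chemistry, per the labels' protocols). The authors ran Cell Ranger 6.0.1 on build mm10, per the submitters' processing notes, and its cell calling settings are not stated in the sources used here. The deposited matrices hold raw UMI counts per gene and barcode for 32285 genes, not normalised. Barcodes were kept from 500 genes upward and up to 10% mitochondrial UMIs. Scrublet ran in scanpy 1.11.5, at an expected 0.8% per 1000 cells, and its calls were not removed. UMIs were summed per set and divided by the set's total (UPM, per 1000000). Genes with 50 UPM or more in either set counted as measured, and as higher or lower at a ratio of 2 or more with sums raised to a floor of 3 UMIs. Ratios printed with limits use UMIs as counted, while calls, list medians and folds against sets at 0 use the floor. Limits are 95% exact Poisson or Clopper-Pearson limits (scipy 1.17.1) for counting error. No test was run, because each group is 1 library and cells are not replicates. Thinning kept 2000 UMIs per cell. On simulated sums with the totals of the 80 cells and the other CD3+ cells, 50 of 50 genes shifted 4-fold and 0 of 50 shifted 1.2-fold were called.

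The members and the 24 gene lists were chosen with earlier results of these data known, and 3 list genes (Scart1, Scart2 and Klra13-ps) were not in the features. Named genes were the rule and marker genes, the 12 (6 in further comparisons) largest ratios per direction at 100 UPM or more without predicted, mitochondrial or ribosomal protein genes, up to 4 genes per list, and chosen receptor and homing genes; others were named after their values were seen. Some members of the lists are counted but not reported by name here. Alternatives changed scaling (edgeR 4.0.16 TMM, median of ratios), the level, the ratio, the cell filters, each condition of the rule and depth. Loci are from GENCODE M21 on GRCm38; promoters are from RefSeq on GRCm38.p6, where 76 of 113 named genes matched.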

Additional observations from a re-analysis of the deposited data

How the results depend on the processing

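No paired analysis was possible because every group is a single library without a replicate number, so no replicate could be left out either. Of 202 alternative values of counts and shares 153 stayed close and 49 moved. Of 839 list medians 746 stayed close. The sign differed in 36, of which 5 had a reported median of 1 or more in size and 31 a smaller one. Of 3664 single gene ratios 3388 stayed close, 276 moved and no called one changed sign. Counts are given as higher and lower in the 80 cells. Against other CD3+ cells they were 208 and 946 at 20 UPM, 6118 and 1414 with no filter on low values, 258 and 962 at a ratio of 1.5, 207 higher after thinning and 165 higher without the Trdc-high counterparts. Against other CD3+ Trdc-low cells they were 226 and 312 with TMM, 211 and 350 with median of ratios, 325 and 1160 at 20 UPM, 514 and 1809 with no filter, 290 and 1163 at a ratio of 1.5, and 253 higher after thinning. The share of calls that were higher was 15.8% as reported, 42% with TMM and 37.6% with median of ratios. Against the Trdc-high counterparts they were 57 and 146 at 20 UPM, 3584 and 428 with no filter, 43 and 113 at a ratio of 1.5, 134 and 132 after thinning, 38 lower with Trdc at 0 and 58 lower over cells with Trac. In the pool they were 1765 higher at 20 UPM, 11249 higher with no filter, 923 and 772 at a ratio of 1.5, and 3023 and 88 after thinning. Between the libraries they were 219 and 205 with TMM, 112 higher with median of ratios, 1907 lower at 20 UPM, 7357 lower with no filter, 218 and 1082 at a ratio of 1.5, 9 and 3109 after thinning, and 34 higher both at 20 or more Ccl5 UMIs and without the deepest pool cell. The cause of these moves was not tested. With Trdc at 0 the share of CD3+ cells was 3.56%, with Cd8 in 66.1% and Trac in 79.7% of them. The 5 were, against other CD3+ cells, effector cytokines at 0.80, invariant NKT and MAIT genes at 2.48 and ILC2 genes at 1.48 with no filter, and invariant NKT and MAIT genes at 0.0342 after thinning. Against other CD3+ Trdc-low cells the ILC1 and NK list was at -0.18 at 20 UPM. Among the smaller ones, the alpha beta list at -0.12 was at 0.21 with TMM and 0.15 with median of ratios. The 80 cells gave 575356 UMIs, and in the 7 pool cells 3 UMIs amount to 58.2 UPM, so low genes cannot be compared there.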

Other observations

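Several gene groups of the Ccl5-high Trdc-low cells have not been described above. MHC class I and presentation genes summed to 7639 UPM in the 80 cells, against 9580 UPM in the other CD3+ Trdc-low cells and 8576 UPM in the Trdc-high counterparts, and of 12 measured genes 1 was lower against the former (Tap1) and none against the latter. Integrin transcripts went both ways: Itga4, the alpha 4 chain, had 141 UPM (limits 112 to 175) against 65.5 UPM in the other CD3+ Trdc-low cells, while Itgal, the LFA-1 alpha chain, had 116 UPM (limits 90.2 to 148) against 245 UPM. Cd28, the main costimulatory receptor, was level at 276 against 300 UPM and was detected in 72.5% and 47.4% of the cells. Nsg2, an endosomal protein gene, had 120 against 12.7 UPM (9.42-fold, limits 4.34 to 24.3), Pde2a, a phosphodiesterase, 170 against 23.6 UPM and Sidt1 212 against 49.1 UPM, and each was close to the level in the counterparts (103, 159 and 189 UPM).

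Genes of the invariant NKT and MAIT list had few UMIs other than Plac8. Zbtb16, the PLZF factor of innate-like T cells, had no UMI in the 80 cells against 70.9 UPM in the other CD3+ Trdc-low cells. Against the floor of 3 UMIs it was 13.6-fold lower. Trav11, the alpha segment of invariant NKT cells, had no UMI, and Plac8, also on that list, had 139 against 27.3 UPM. Cd40lg, a helper ligand, had no UMI against 271 UPM, and Foxp3 had none against 14.5 UPM.

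The Trdc-high counterparts differed from the other 1196 Trdc-high cells of their library. In this comparison, added after seeing the data, 149 of 3131 genes were higher (percent called 4.76) and 560 lower (percent called 17.9).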
